A study of Mus musculus with 35 samples.

Results

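The genes of cholesterol and fatty acid synthesis that the SREBP transcription factors are known to control were followed in mouse lung 24 h after NRCWE-043, NRCWE-044 or NRCWE-045, code-named materials that the series title calls nanomaterials. The set was taken by name: 18 enzymes of sterol synthesis, 4 regulators and 11 genes of fatty acid synthesis, found through every array probe annotated to them. All 33 were on the array, with 47 probes, and all 33 were among the 15621 named genes tested. 46 of these probes passed the filter on dim signals, and the brightest tested probe stood for each gene. At 54 µg of each material, 17 of the 18 sterol enzymes lay above control on average, as did 8, 9 and 7 of the 11 fatty acid genes for NRCWE-043, for NRCWE-044 and for NRCWE-045.

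Lungs of female C57BL/6 mice aged 5 to 7 weeks were taken after 1 intratracheal instillation of 18 or 54 µg of a material in a volume of 40 µl, and the controls are labelled with 0 µg. There were 7 groups of 5 arrays. What the controls were given besides 0 µg is not stated, and no allele or second agent is named for any group. The labels do not say that the arrays of a group came from separate mice, so p-values measure only the spread between these samples, which may be technical. Each 2-colour Agilent array set 200 ng of lung RNA (Cy5) against a common reference RNA from 11 cell lines (Cy3). A value below is the log2 ratio of lung to reference for 1 gene, and a change is the difference of 2 group means on that scale, so that levels are not compared between genes. Whole lung was measured, and fewer cells of a type and less RNA per cell cannot be told apart.

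Cells make cholesterol from acetyl-CoA through mevalonate, farnesyl diphosphate, squalene and lanosterol. When sterols in the membranes of the endoplasmic reticulum run low, the SREBP proteins are released, cut and carried to the nucleus, where the sterol enzymes and the genes of fatty acid synthesis are among their known targets. In the lung, alveolar type II cells are known for making the lipids of surfactant, and macrophages for clearing them.

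For the lung RNA, 42.8 to 69.3% of probes lay well above background, and the number of arrays limits the precision. Markers of alveolar type II cells were high against the reference, with a mean log2 ratio between 4.44 and 5.40 on all arrays. 0 of 10 passed an adjusted p under 0.05 (limma) in any of the 6 comparisons with control. Their changes at 54 µg ran from -0.56 to 0.27 with NRCWE-043, -0.35 to 0.47 with NRCWE-044 and -0.30 to 0.45 with NRCWE-045. Some arrays stood apart. The mean log2 ratio of 11 adipocyte markers was 0.75 to 1.51 in controls but above 2 on 6 arrays, a line drawn after seeing the data: replicates 9 and 19 of NRCWE-043 at 54 µg, 6 and 23 of NRCWE-044 at 18 µg, and 4 and 34 of NRCWE-044 at 54 µg. Controls 7 and 29, and replicates 5, 6, 10 and 23, were also singled out, with earlier results of these data known and by no fixed measure. The counts of called members at 54 µg are given with and without these arrays.

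A gene was called changed at an adjusted p under 0.05 (limma, Benjamini-Hochberg adjustment over all 25534 features of a comparison). At 54 µg of NRCWE-043, 9 of the 33 genes rose and 0 fell, where 10.3% of all features were called (5.35% higher and 4.92% lower). With NRCWE-044 at 54 µg, 11 rose and 0 fell, where 5.98% of all features were called (3.94% higher and 2.05% lower). With NRCWE-045 at 54 µg 2 rose and 0 fell, where 0.325% of all features were called (0.29% higher and 0.0352% lower). At 18 µg NRCWE-043 had 4 genes higher and 1 lower, where 4.2% of all features were called (1.34% higher and 2.86% lower). No member passed with NRCWE-044 or NRCWE-045 at 18 µg in limma, where 0% of all features were called. At an unadjusted p under 0.05, 8 members were higher and 0 lower with NRCWE-044 (4.38% of all features higher and 6.47% lower), and 5 higher and 1 lower with NRCWE-045 (1.63% and 1.16%).

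These counts rest on few arrays. Leaving out single arrays gave 7 to 11 called members for NRCWE-043 at 54 µg and 5 to 12 for NRCWE-044. The NRCWE-044 count was 5 without its replicate 34, 6 without control 7, and 7 without its replicate 4 or control 15. For NRCWE-043 at 18 µg it was 1 without control 30, 2 without control 2 or 15 or replicate 10, and 3 without replicate 5 or 33. For NRCWE-044 at 18 µg 1 member was called without control 30. By gene, over the 10 fits that each left out 1 array, the 54 µg calls of Hmgcs1 and Sqle with NRCWE-044 and of Tm7sf2 with NRCWE-043 were lost in 8, that of Stard4 with NRCWE-043 in 7, and those of Mvk, Aacs and Me1 with NRCWE-044 in 5. At 18 µg of NRCWE-043 those of Pmvk and Cyp51 were lost in 6 and that of Stard4 in 5. In none of the 10 were the 54 µg calls of Idi1 and Mvd lost with NRCWE-043 or NRCWE-044. With arrays centred on their medians in place of the loess fit, 3, 0 and 0 members were called at 54 µg of the 3 materials, with sterol medians of 0.74, 0.39 and 0.50.

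The sterol enzymes held most of these calls, 8 of 18, 9 of 18 and 2 of 18 at 54 µg for NRCWE-043, for NRCWE-044 and for NRCWE-045. Their median change was 0.41, 0.45 and 0.39. Over all features the median change lay at 0.01 in each of these comparisons. At 18 µg the sterol medians were 0.21, 0.23 and 0.17. The 11 fatty acid genes gave 0, 2 and 0 calls at 54 µg with medians of 0.25, 0.39 and 0.05, and 0 calls at each material's 18 µg with medians of 0.11, 0.14 and -0.06. All 6 comparisons share the 5 control arrays.

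**Figure D1:**
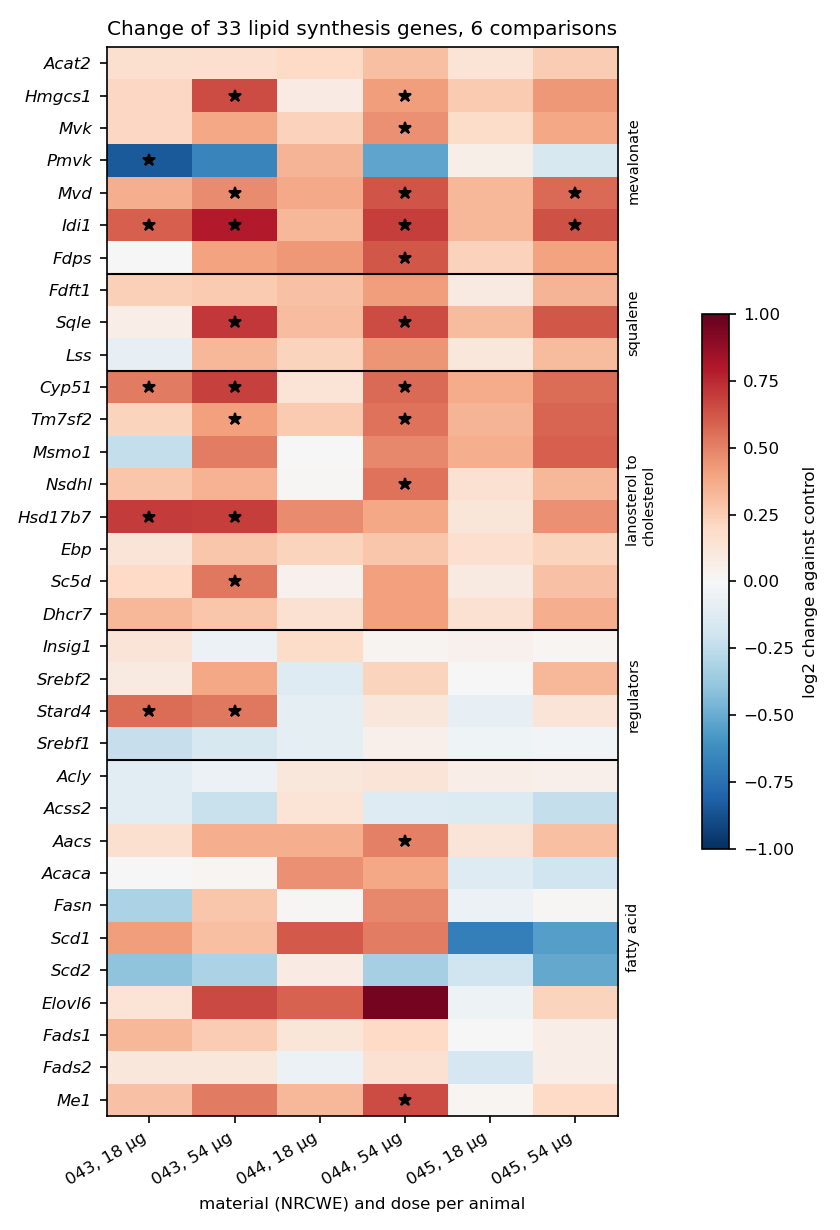
Log2 change against control of 33 lipid synthesis genes (rows, by role) in 6 comparisons (columns, material and dose); red is higher, blue is lower, and a star marks an adjusted p under 0.05 (limma). The sterol rows are red at 54 µg of all 3 materials except Pmvk, at -0.66, -0.53 and -0.16.

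The same contrast shows array by array. For each array the median over the sterol enzymes of the difference from the control mean was taken. It ran from -0.14 to 0.09 in controls, 0.36 to 0.53 with NRCWE-043, 0.33 to 0.61 with NRCWE-044 and 0.34 to 0.51 with NRCWE-045 at 54 µg. Every array at 54 µg thus lay above every control. At 18 µg the ranges were 0.13 to 0.28, 0.08 to 0.56 and 0.11 to 0.44, of which only the NRCWE-044 range touched the controls. The fatty acid medians were -0.20 to 0.27 in controls. They were -0.03 to 0.38, 0.11 to 0.55 and -0.13 to 0.15 at 54 µg, and each of these ranges overlapped the controls. The sterol median exceeded the fatty acid median on 5 of 5 arrays in each 54 µg group and on 3 of 5 controls. At 18 µg it did so on 5 of 5 arrays with NRCWE-043, on 2 of 5 with NRCWE-044 and on 5 of 5 with NRCWE-045.

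**Figure D2:**
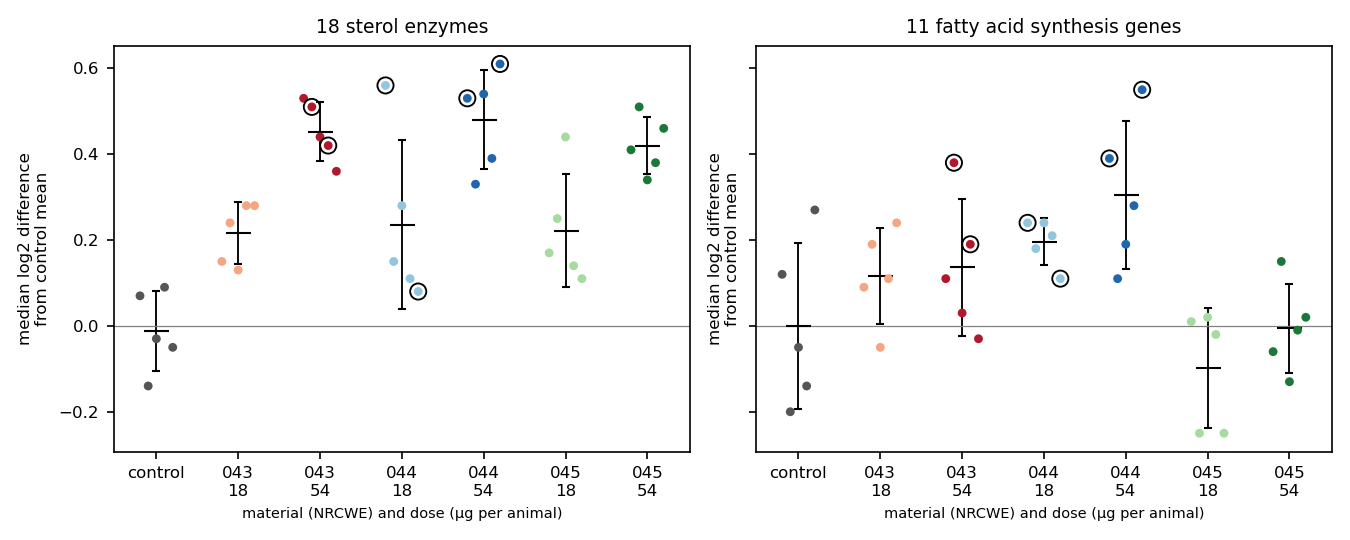
Median log2 difference from the control mean for 18 sterol enzymes (left) and 11 fatty acid synthesis genes (right), 1 point per array, with group mean and SD; ringed points are the 6 arrays with an adipocyte marker mean above 2. The sterol medians at 54 µg, from 0.33 to 0.61, all lie above the controls, whose highest is 0.09, and the fatty acid medians overlap the controls.

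Slides held several groups, so the contrast was also taken within slides, where each value rests on 1 or 2 control arrays. The sterol median change within slides was 0.50 to 0.54 on 2 slides for NRCWE-043 at 54 µg, 0.42 to 0.57 on 3 slides for NRCWE-044 and 0.30 to 0.61 on 4 slides for NRCWE-045. The fatty acid median was 0.16 to 0.18, 0.01 to 0.44 and -0.09 to 0.20 on the same slides. The sterol direction thus held on every slide that could be compared.

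The mevalonate steps hold the most repeated calls. Idi1 encodes the isomerase that interconverts the building blocks of all isoprenoids. Idi1 read -0.20, -0.15, -0.27, 0.00 and -0.37 in controls, 0.54, 0.85, 0.23, 0.25 and 0.17 with NRCWE-043 at 18 µg and 0.64, 0.45, 0.54, 0.85 and 0.51 at 54 µg. With NRCWE-044 it read 0.63, 0.05, 0.12, -0.21 and 0.07 at 18 µg and 0.47, 0.42, 0.32, 0.69 and 0.55 at 54 µg, and with NRCWE-045 0.09, 0.06, 0.49, -0.06 and 0.07 and 0.45, 0.55, 0.61, 0.30 and 0.31. All 15 arrays at 54 µg and all 5 arrays of NRCWE-043 at 18 µg lay above the highest control, while the other 18 µg groups overlapped the controls. Idi1 rose by 0.79 (SE 0.13, adjusted p = 0.00014, 1.73-fold) with NRCWE-043 at 54 µg, 0.69 (adjusted p = 0.0011) with NRCWE-044 and 0.64 (adjusted p = 0.024) with NRCWE-045. At 18 µg of NRCWE-043 it rose by 0.60 (adjusted p = 0.0051).

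Mvd, the decarboxylase that makes isopentenyl diphosphate, was the other gene called with all 3 materials at 54 µg. Mvd read -1.08, -1.27, -1.11, -0.95 and -0.73 in controls, -0.50, -0.52, -0.96, -0.78 and -0.57 with NRCWE-043 at 18 µg and -0.51, -0.48, -0.57, -0.49 and -0.74 at 54 µg. With NRCWE-044 it read -0.22, -0.65, -0.68, -0.77 and -0.92 and -0.35, -0.58, -0.29, -0.54 and -0.20, and with NRCWE-045 -0.79, -0.61, -0.29, -0.91 and -0.88 and -0.59, -0.48, -0.73, -0.22 and -0.28, at 18 and 54 µg. The 54 µg arrays of NRCWE-044 lay above all controls, and the lowest arrays of the other materials were at the level of the highest control, at -0.73. Mvd rose by 0.47 (adjusted p = 0.016), 0.63 (adjusted p = 0.0023) and 0.57 (adjusted p = 0.039). With NRCWE-045 the calls of Idi1 and Mvd were each lost in 8 of 10 fits without 1 array: leaving out single arrays gave 0 to 4 called members in that comparison, with 0 called without control 2, 7, 15 or 30 and without NRCWE-045 replicate 8, 14 or 32. 1 was called without NRCWE-045 replicate 28, and 4 without control 29.

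Hmgcs1, the cytosolic synthase that makes HMG-CoA, read -0.15, -0.02, -0.45, -0.11 and -0.31 in controls, -0.54, -0.06, 0.02, 0.18 and 0.43 with NRCWE-043 at 18 µg and 0.63, 0.56, 0.16, 0.54 and 0.34 at 54 µg. With NRCWE-044 Hmgcs1 read 0.05, -0.18, -0.32, -0.15 and -0.01 and 0.33, -0.04, 0.24, 0.32 and 0.19, and with NRCWE-045 0.04, 0.11, 0.36, -0.24 and 0.00 and 0.18, 0.24, 0.35, 0.12 and 0.20, at 18 and 54 µg. All 54 µg arrays of NRCWE-043 and NRCWE-045 lay above the highest control, at -0.02, and 1 array of NRCWE-044 did not. Hmgcs1 rose by 0.65 (adjusted p = 0.00095) with NRCWE-043 and 0.42 (adjusted p = 0.046) with NRCWE-044. Its change of 0.43 with NRCWE-045 did not pass (95% interval 0.16 to 0.69, adjusted p = 0.15).

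Of the remaining mevalonate genes, Mvk, a kinase of mevalonate, rose by 0.46 (adjusted p = 0.03) with NRCWE-044 at 54 µg. Fdps, which builds farnesyl diphosphate, rose by 0.62 (adjusted p = 0.0062) in the same comparison. Acat2, which joins acetyl-CoA units, passed in none of the 6 comparisons.

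Pmvk, the kinase between Mvk and Mvd, was the exception, and it is described here after its values were seen. Pmvk read 1.77, 0.42, 1.44, 0.76 and 2.23 in controls, 0.40, -0.02, 0.75, 0.73 and 0.58 with NRCWE-043 at 18 µg and 0.38, 0.58, 0.90, 0.40 and 1.04 at 54 µg. With NRCWE-044 Pmvk read 1.53, 2.08, 2.11, 1.73 and 0.90 and 0.84, 0.57, 0.75, 1.13 and 0.68, and with NRCWE-045 1.48, 1.64, 1.12, 1.21 and 1.49 and 1.04, 1.04, 1.34, 0.83 and 1.58, at 18 and 54 µg. The controls alone spanned 0.42 to 2.23, and control 7 lay within the NRCWE-043 range. Pmvk fell by 0.84 (adjusted p = 0.042) with NRCWE-043 at 18 µg, and its changes at 54 µg did not pass. At 18 µg of NRCWE-044 and NRCWE-045 its means, 1.67 and 1.39, lay above the control mean of 1.32. The direction at 54 µg was shared by a second Pmvk probe, with changes of -0.48, -0.43 and -0.16, none of them called.

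**Figure D3:**
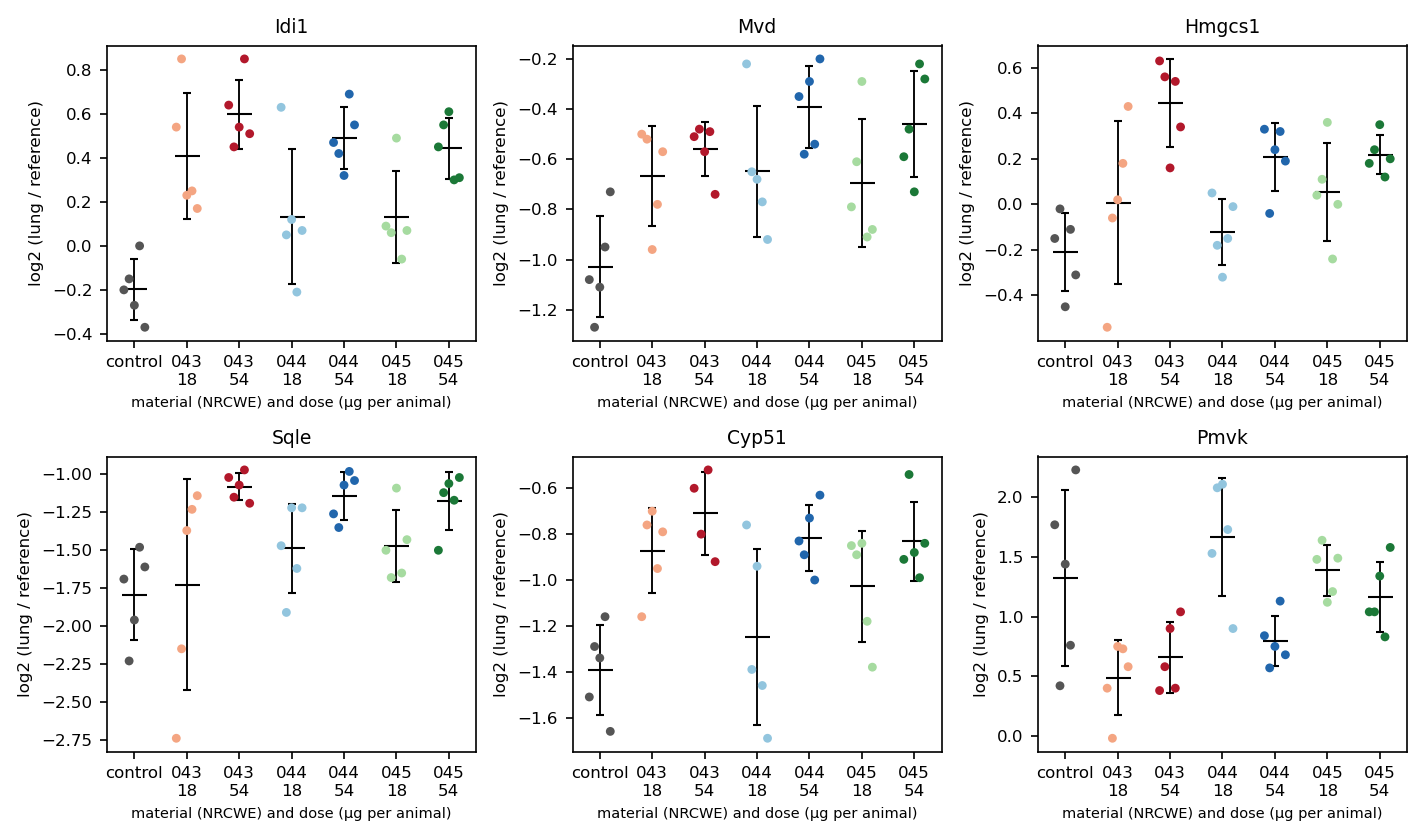
Log2 ratio of lung to reference RNA for 6 sterol enzymes, 1 point per array, with group mean and SD; groups are control and the 3 materials at 18 and 54 µg. All 54 µg points of Idi1 lie above its highest control, at 0.00, and Pmvk controls span 0.42 to 2.23.

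Short sequences linked to SREBP were looked for in the promoters of the members. RefSeq promoter windows (GRCm38.p6, 250 bases before to 50 after the start of transcription) were matched by symbol for 26 of the 33 genes; Fads1, Fdft1, Fdps, Scd1, Scd2, Sqle and Stard4 had none. 4 motifs were searched on both strands, and a match is a description of letters, not a site. CCAAT, the letters of the NF-Y box, occurred in 14 of 15 sterol genes, with Acat2 as the exception. It occurred in 3 of 3 regulators, in 4 of 8 fatty acid genes and in 41.1% of all 27025 genes with a window. TCACNCCAC, the inner letters of a sterol regulatory element, matched Hmgcs1 alone (1.44% of all genes). The whole element, which has an A before those letters, matched 0 of the 26 genes (0.27% of all genes). The E-box type of element, ATCA and TGAT with any 2 bases between them, matched 0 of 26 (0.485% of all genes). A gene with several windows was counted once, here and in the shares of all genes.

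The 250 bases upstream of the start are shown, on the strand of the gene, for 3 sterol genes called at 54 µg and, as a fatty acid gene that was not, Fasn. Capitals mark CCAAT, its reverse complement ATTGG, and in Hmgcs1 also the match to TCACNCCAC, which begins at position -137 from the start. Positions are chr13:119690101-119690350 (plus strand) for Hmgcs1, chr13:8885356-8885605 (plus) for Idi1, chr5:114444019-114444268 (plus) for Mvk and chr11:120824548-120824797 (minus) for Fasn.
Hmgcs1: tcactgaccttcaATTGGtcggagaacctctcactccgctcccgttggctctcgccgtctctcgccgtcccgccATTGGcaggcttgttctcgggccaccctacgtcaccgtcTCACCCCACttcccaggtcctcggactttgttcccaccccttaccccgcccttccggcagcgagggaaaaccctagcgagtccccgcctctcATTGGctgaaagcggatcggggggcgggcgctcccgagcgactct
Idi1: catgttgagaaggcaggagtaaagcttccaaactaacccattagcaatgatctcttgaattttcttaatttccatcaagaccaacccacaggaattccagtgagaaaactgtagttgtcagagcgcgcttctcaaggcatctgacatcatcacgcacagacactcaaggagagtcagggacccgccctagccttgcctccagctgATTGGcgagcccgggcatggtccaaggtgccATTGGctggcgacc
Mvk: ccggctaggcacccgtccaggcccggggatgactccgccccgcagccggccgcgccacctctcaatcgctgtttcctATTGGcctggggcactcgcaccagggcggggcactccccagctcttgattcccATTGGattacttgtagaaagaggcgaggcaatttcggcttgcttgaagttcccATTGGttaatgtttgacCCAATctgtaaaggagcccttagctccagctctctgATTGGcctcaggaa
Fasn: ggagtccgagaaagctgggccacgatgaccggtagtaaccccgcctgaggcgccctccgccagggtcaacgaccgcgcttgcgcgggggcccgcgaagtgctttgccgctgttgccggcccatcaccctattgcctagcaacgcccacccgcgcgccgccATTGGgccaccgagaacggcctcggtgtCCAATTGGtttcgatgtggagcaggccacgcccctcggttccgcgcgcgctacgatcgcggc
The upstream stretches hold 3 CCAAT matches in Hmgcs1, 2 in Idi1, 5 in Mvk and 3 in Fasn, so that these letters do not separate Fasn from the 3 called genes shown. Fasn is not typical of the fatty acid genes, since it had the most matches among the 8 with a window. Acly, Acss2 and Me1 had 1, and Aacs, Acaca, Elovl6 and Fads2 had 0.

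In the squalene steps, Sqle encodes the epoxidase that adds the oxygen of the later sterol. Sqle read -1.69, -2.23, -1.96, -1.48 and -1.61 in controls, -2.74, -2.15, -1.37, -1.23 and -1.14 with NRCWE-043 at 18 µg and -1.02, -1.15, -1.07, -0.97 and -1.19 at 54 µg. With NRCWE-044 Sqle read -1.47, -1.91, -1.22, -1.62 and -1.22 and -1.26, -1.35, -1.07, -0.98 and -1.04, and with NRCWE-045 -1.50, -1.68, -1.09, -1.65 and -1.43 and -1.50, -1.12, -1.06, -1.17 and -1.02, at 18 and 54 µg. The 54 µg arrays of NRCWE-043 and NRCWE-044 lay above all controls, and 1 array of NRCWE-045, at -1.50, did not. Sqle rose by 0.71 (SE 0.20, adjusted p = 0.019) and 0.65 (adjusted p = 0.047). With NRCWE-045 its change of 0.62 (95% interval 0.21 to 1.03) had an adjusted p of 0.19. Replicates 5 and 10 of NRCWE-043 at 18 µg, at -2.74 and -2.15, were among the 3 lowest of 35, and the group's 3 other arrays lay above every control. Fdft1, squalene synthase, and Lss, which closes the ring to lanosterol, passed in none of the 6 comparisons.

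Cyp51, the demethylase of lanosterol, read -1.51, -1.29, -1.34, -1.16 and -1.66 in controls and -1.16, -0.76, -0.70, -0.95 and -0.79 with NRCWE-043 at 18 µg. At 54 µg it read -0.60, -0.80, -0.52 and -0.92 on 4 arrays, since replicate 19 had no value. With NRCWE-044 Cyp51 read -0.76, -1.39, -0.94, -1.46 and -1.69 and -0.83, -0.89, -0.73, -1.0 and -0.63, and with NRCWE-045 -0.85, -0.89, -0.84, -1.18 and -1.38 and -0.91, -0.54, -0.88, -0.99 and -0.84, at 18 and 54 µg. All arrays with a value at 54 µg lay above the highest control, at -1.16. Cyp51 rose by 0.68 (adjusted p = 0.0032) with NRCWE-043, 0.57 (adjusted p = 0.012) with NRCWE-044 and 0.52 (adjusted p = 0.031) at 18 µg of NRCWE-043. Its change of 0.56 with NRCWE-045 at 54 µg had an adjusted p of 0.073.

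Tm7sf2, a sterol reductase, read 0.16, -0.10, 0.30, 0.45 and 0.18 in controls, 0.36, 0.94, 0.32, 0.22 and 0.24 with NRCWE-043 at 18 µg and 0.27, 0.81, 0.76, 0.61 and 0.62 at 54 µg. With NRCWE-044 Tm7sf2 read 1.02, 0.38, 0.51, 0.05 and 0.33 and 0.66, 0.79, 0.76, 0.69 and 0.77, and with NRCWE-045 0.51, 0.44, 0.69, 0.49 and 0.56 and 0.60, 0.98, 0.82, 0.90 and 0.60, at 18 and 54 µg. The 54 µg arrays of NRCWE-044 and NRCWE-045 lay above all controls. Tm7sf2 rose by 0.41 (adjusted p = 0.0497, just under the threshold) and 0.54 (adjusted p = 0.015), and its 0.58 with NRCWE-045 missed it (adjusted p = 0.052). A dimmer Tm7sf2 probe was called with all 3 materials, at 0.59, 0.58 and 0.60.

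Hsd17b7, the ketoreductase of sterol demethylation, read -1.30, -0.90, -1.40, -1.28 and -1.90 in controls, -0.73, -0.46, -0.83, -0.84 and -0.42 with NRCWE-043 at 18 µg and -0.57, -0.25, -0.76, -0.74 and -1.0 at 54 µg. With NRCWE-044 Hsd17b7 read -0.36, -0.86, -1.19, -1.17 and -0.84 and -0.99, -1.35, -0.65, -1.12 and -0.73, and with NRCWE-045 -1.07, -1.28, -1.12, -1.32 and -1.38 and -0.74, -0.79, -0.95, -1.13 and -0.86, at 18 and 54 µg. The NRCWE-043 arrays at 18 µg lay above all controls, and at 54 µg 1 of 5 lay below the highest control. Hsd17b7 rose by 0.70 (adjusted p = 0.0086) and 0.69 (adjusted p = 0.0046) at the lower and higher dose of NRCWE-043.

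Sc5d, a sterol desaturase, rose by 0.53 (adjusted p = 0.007) with NRCWE-043 at 54 µg. Nsdhl, a dehydrogenase of the demethylation steps, rose by 0.54 (adjusted p = 0.014) with NRCWE-044 at 54 µg, but its dimmer probe read -0.01 there. Msmo1, the methylsterol oxidase, changed by 0.51, 0.48 and 0.60 at 54 µg and passed in none. Replicates 5 and 10 of NRCWE-043 at 18 µg gave its lowest ratios, -2.37 and -1.85. Ebp, a sterol isomerase, also passed in none.

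Dhcr7, the reductase of the last step, read -0.33, -0.44, -1.09, -0.76 and -0.76 in controls, -0.16, -0.09, -0.72, -0.35 and -0.43 with NRCWE-043 at 18 µg and -0.05, -0.30, -0.59, -0.60 and -0.43 at 54 µg. With NRCWE-044 Dhcr7 read 0.35, -0.43, -0.90, -0.76 and -0.91 and -0.09, -0.39, -0.15, -0.37 and -0.36, and with NRCWE-045 -0.43, -0.50, -0.43, -0.44 and -0.85 and -0.27, -0.49, -0.65, 0.04 and -0.22, at 18 and 54 µg. Every treated group overlapped the controls, and the changes of 0.28, 0.41 and 0.36 at 54 µg did not pass (adjusted p = 0.37, 0.2 and 0.55).

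Among the regulators, Srebf2 and Srebf1 encode the SREBP proteins, and Insig1 encodes a protein that holds them back in the endoplasmic reticulum. Srebf2 read -0.50, -0.25, -0.74, -0.71 and -0.67 in controls, -0.83, -0.39, -0.34, -0.53 and -0.32 with NRCWE-043 at 18 µg and 0.07, -0.30, -0.19, -0.02 and -0.45 at 54 µg. With NRCWE-044 Srebf2 read -0.30, -0.44, -0.74, -0.87 and -1.16 and -0.23, -0.61, -0.68, -0.21 and -0.05, and with NRCWE-045 -0.47, -0.36, -0.35, -0.88 and -0.79 and -0.21, -0.19, -0.64, -0.20 and 0.05, at 18 and 54 µg. The groups overlapped, and the 54 µg changes of 0.39, 0.22 and 0.33 did not pass (95% intervals 0.08 to 0.71, -0.10 to 0.53 and 0.02 to 0.65).

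Srebf1 read 1.00, 0.54, 0.79, 0.97 and 1.35 in controls, 0.35, 0.55, 0.73, 1.11 and 0.78 with NRCWE-043 at 18 µg and 0.91, 0.62, 0.70, 0.74 and 0.90 at 54 µg. With NRCWE-044 Srebf1 read 0.58, 0.99, 1.12, 1.31 and 0.18 and 1.03, 0.91, 0.84, 1.21 and 0.92, and with NRCWE-045 0.68, 1.03, 0.65, 1.22 and 0.89 and 0.96, 0.81, 0.85, 0.95 and 0.92, at 18 and 54 µg. All groups overlapped, with 54 µg changes of -0.16, 0.05 and -0.03 that did not pass.

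Insig1 read -0.39, -0.33, -0.50, -0.46 and -0.74 in controls, 0.15, -0.35, -0.44, -0.51 and -0.61 with NRCWE-043 at 18 µg and -0.65, -0.54, -0.61, -0.37 and -0.56 at 54 µg. With NRCWE-044 Insig1 read -0.32, -0.14, -0.41, -0.39 and -0.26 and -0.51, -0.64, -0.31, -0.55 and -0.27, and with NRCWE-045 -0.52, -0.41, -0.33, -0.69 and -0.28 and -0.29, -0.72, -0.39, -0.50 and -0.44, at 18 and 54 µg. Insig1 is itself a known SREBP target, and it was not called in any of the 6 comparisons. Its 54 µg changes were -0.06, 0.03 and 0.02 (95% intervals -0.29 to 0.17, -0.20 to 0.26 and -0.21 to 0.25). These intervals lie below the Idi1 changes in the same comparisons, though the difference between the genes was not tested.

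Stard4, which carries sterol between membranes and is only listed here with the regulators, was the only gene of that list called. Stard4 read -0.44, 0.22, -0.80, 0.05 and -0.97 in controls, 0.37, 0.56, 0.07, -0.04 and -0.09 with NRCWE-043 at 18 µg and -0.02, 0.21, 0.10, 0.32 and 0.10 at 54 µg. With NRCWE-044 Stard4 read -0.36, -0.38, -0.62, -0.56 and -0.52 and -0.19, -0.37, -0.43, -0.13 and -0.29, and with NRCWE-045 -0.52, -0.34, -0.50, -0.77 and -0.18 and -0.15, -0.47, 0.15, -0.37 and -0.42, at 18 and 54 µg. Controls 7 and 29, at 0.22 and 0.05, overlapped the NRCWE-043 arrays, and the other 3 controls lay below them. Stard4 rose by 0.56 (adjusted p = 0.044) and 0.53 (adjusted p = 0.034) at 18 and 54 µg of NRCWE-043. Its dimmer probe changed by 0.16 at 54 µg, which was not called.

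In fatty acid synthesis, Fasn, the synthase that builds palmitate, read 2.11, 1.44, 1.89, 1.63 and 2.37 in controls, 0.65, 1.07, 1.95, 1.99 and 2.15 with NRCWE-043 at 18 µg and 2.25, 2.38, 1.92, 2.21 and 2.06 at 54 µg. With NRCWE-044 Fasn read 1.41, 2.07, 2.22, 2.24 and 1.56 and 2.55, 1.92, 2.19, 2.38 and 2.79, and with NRCWE-045 1.67, 1.95, 1.95, 1.96 and 1.62 and 1.84, 2.03, 1.67, 1.88 and 2.06, at 18 and 54 µg. Replicates 5 and 10 of NRCWE-043 at 18 µg were again the lowest of 35, and every group overlapped the controls. The 54 µg changes of 0.28, 0.48 and 0.01 did not pass (95% intervals -0.17 to 0.72, 0.04 to 0.92 and -0.43 to 0.45).

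Acly, which cleaves citrate to cytosolic acetyl-CoA, read 0.98, 0.92, 0.78, 1.05 and 1.27 in controls, 0.90, 1.01, 0.77, 0.86 and 0.89 with NRCWE-043 at 18 µg and 1.11, 1.34, 0.67, 1.04 and 0.55 at 54 µg. With NRCWE-044 Acly read 0.94, 1.22, 1.24, 1.18 and 0.96 and 1.39, 0.86, 0.97, 1.27 and 1.15, and with NRCWE-045 1.14, 1.12, 0.96, 0.99 and 1.11 and 1.08, 0.84, 1.09, 1.18 and 1.07, at 18 and 54 µg. The groups overlapped, and the 54 µg changes of -0.06, 0.13 and 0.05 did not pass.

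Scd1, a desaturase that makes monounsaturated fatty acids, read 4.07, 3.05, 2.25, 3.27 and 4.43 in controls, 3.72, 4.07, 3.51, 3.92 and 3.92 with NRCWE-043 at 18 µg and 3.90, 4.31, 3.50, 3.50 and 3.37 at 54 µg. With NRCWE-044 Scd1 read 3.66, 4.18, 4.01, 4.21 and 4.06 and 3.46, 3.39, 3.77, 4.74 and 4.25, and with NRCWE-045 3.14, 2.23, 2.94, 2.77 and 2.58 and 2.73, 3.12, 3.03, 2.72 and 2.70, at 18 and 54 µg. All 10 NRCWE-045 arrays lay below all 20 arrays of the other materials, and the controls spanned 2.25 to 4.43. No comparison of Scd1 with control passed.

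Scd2, the related desaturase, read 0.81, 0.39, 0.66, 0.22 and 0.98 in controls, -0.22, -0.36, 0.46, 0.58 and 0.60 with NRCWE-043 at 18 µg and 0.55, 0.35, 0.25, 0.13 and 0.19 at 54 µg. With NRCWE-044 Scd2 read 0.06, 0.87, 0.99, 0.95 and 0.58 and 0.01, 0.16, 0.31, 0.70 and 0.25, and with NRCWE-045 0.70, 0.37, 0.43, 0.34 and 0.24 and 0.07, -0.04, -0.02, 0.05 and 0.45, at 18 and 54 µg. Its 54 µg changes were below 0 with each material, -0.32, -0.33 and -0.51, opposite in sign to most sterol enzymes, and none passed (adjusted p = 0.3, 0.33 and 0.25).

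Elovl6, an elongase of long-chain fatty acids, read -1.61, -1.91, -1.76, -1.63 and -1.62 in controls, -1.95, -1.66, -1.30, -1.53 and -1.37 with NRCWE-043 at 18 µg and -1.33, -0.29, -1.29, -0.86 and -1.48 at 54 µg. With NRCWE-044 Elovl6 read 0.51, -1.54, -1.56, -2.20 and -0.80 and 0.08, -1.14, -1.30, -1.43 and 0.08, and with NRCWE-045 -1.56, -1.89, -1.55, -1.80 and -1.95 and -1.33, -1.39, -1.49, -1.68 and -1.54, at 18 and 54 µg. The 6 highest values of 35 were the 6 arrays with an adipocyte marker mean above 2: there Elovl6 ran from -0.86 to 0.51, and on the other 29 arrays from -2.20 to -1.14. Its 54 µg changes of 0.66, 0.96 and 0.22 did not pass (adjusted p = 0.21, 0.068 and 0.93).

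The only fatty acid genes called against control were 2 that were higher with NRCWE-044 at 54 µg. Aacs, which activates acetoacetate, rose by 0.50 (adjusted p = 0.033), and Me1, malic enzyme, a source of NADPH, by 0.65 (adjusted p = 0.029). On the 6 arrays with raised adipocyte markers Me1 read 1.06 to 1.47, and on the other 29 it read 0.14 to 1.40. Adipocyte markers were not its closest correlate. With group means removed, the Pearson r of Me1 with their mean was 0.48. It was 0.68 with heart muscle, 0.66 with monocyte and macrophage and 0.50 with proliferation markers. With alveolar type II and alveolar macrophage markers it was -0.24 and -0.17. The part of any of these cell types in the Me1 change was not tested. Without those 6 arrays, with 3 of 5 left in that group, Aacs changed by 0.26 (adjusted p = 0.42) and Me1 by 0.49 (adjusted p = 0.22). The remaining fatty acid genes, Acaca, Acss2, Fads1 and Fads2, passed in none of the 6 comparisons with control. At an unadjusted p under 0.05 (limma), 4, 5 and 1 of the 11 were higher at 54 µg of the 3 materials in turn. The shares of all features higher by that measure were 12.1, 11.1 and 6.29%. 0, 0 and 1 of the 11 were lower (10.9, 8.48 and 3.1% of all features).

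Leaving out the 6 arrays with raised adipocyte markers left groups of 3 at 54 µg of NRCWE-043 and NRCWE-044. 4 members were then called with NRCWE-043 (Cyp51, Hmgcs1, Hsd17b7 and Idi1), 3 with NRCWE-044 (Fdps, Idi1 and Mvd) and 4 with NRCWE-045 (Cyp51, Idi1, Mvd and Tm7sf2). Without replicates 5, 6, 10 and 23 the counts were 15, 19 and 8, and without controls 7 and 29 they were 8, 6 and 1, of which 1 with NRCWE-043 and 1 with NRCWE-044 was Pmvk, lower than control there, for which these are the lowest controls. Idi1 was called with all 3 materials under each of these 3 choices.

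**Figure D4:**
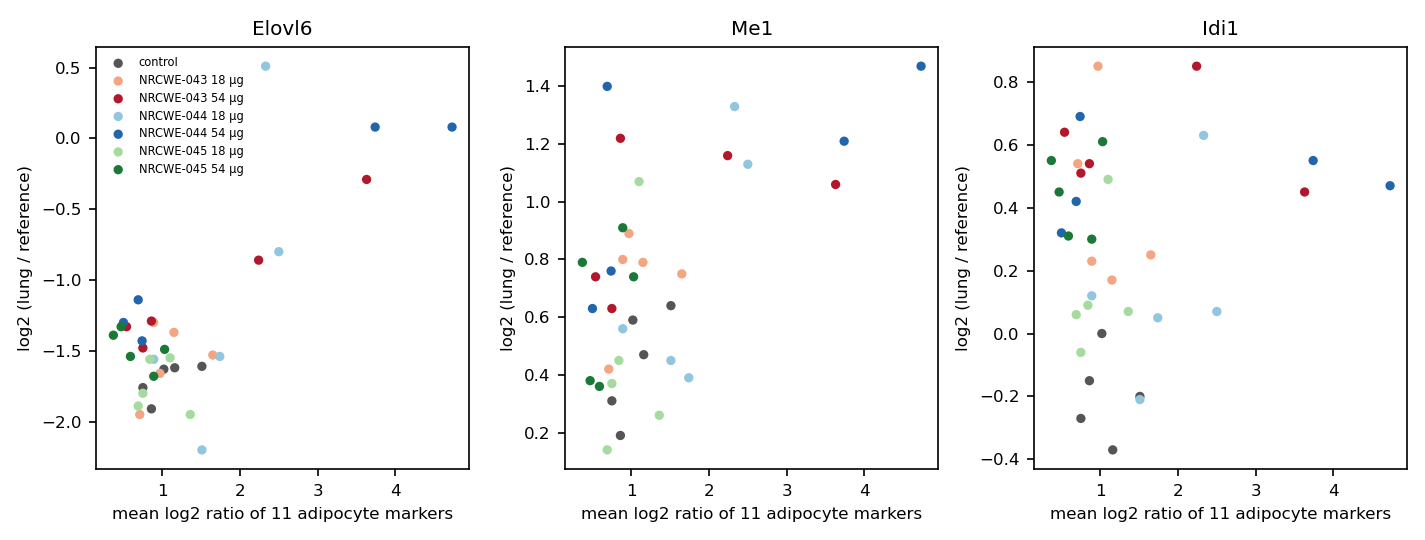
Log2 ratio of Elovl6, Me1 and Idi1 against the mean log2 ratio of 11 adipocyte markers, 1 point per array, coloured by group. The 6 arrays above 2 hold the highest Elovl6 ratios, from -0.86 to 0.51, while Idi1 reaches 0.85 on arrays with low and with raised markers.

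Some other cell type markers were called at 54 µg as well. The shares of all features called there were 10.3, 5.98 and 0.325% with NRCWE-043, NRCWE-044 and NRCWE-045. Of 7 monocyte and macrophage markers tested, 5 rose and 1 fell with NRCWE-043, 4 rose with NRCWE-044 and 0 passed with NRCWE-045 in limma. Their mean log2 ratio was 0.43 to 0.86 in controls, and 1.08 to 1.41, 0.87 to 1.98 and 0.66 to 1.15 at 54 µg of the 3 materials in turn. Ccr2, a chemokine receptor of monocytes, rose by 1.16 and 1.03 with NRCWE-043 and NRCWE-044. Of 9 alveolar macrophage markers, 2 fell with NRCWE-043, and 2 rose and 1 fell with NRCWE-044. Proliferation markers had 0 of 6 called, with means of -3.89 to -2.86 in controls and -3.61 to -2.32, -3.17 to -2.44 and -3.93 to -3.39 at 54 µg. Heart muscle markers had 0 of 10 called, and controls ran from -0.27 to 2.56. With group means removed, the Pearson r of Idi1 with the marker means was 0.61 for proliferation and 0.17 for heart muscle. It was 0.10 for monocyte and macrophage and -0.40 for alveolar macrophage markers. For Mvd these values were 0.31, 0.07, 0.11 and -0.20. They are descriptions, and the part of these cell types in the sterol result was not tested.

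Between 18 and 54 µg of the same material, few members passed. With NRCWE-044, where 6.45% of all features were called (4.82% higher and 1.63% lower), Nsdhl rose by 0.54 (adjusted p = 0.013) and Pmvk fell by 0.87 (adjusted p = 0.023). These calls make up 6.06% of the members, near the share of all features. With NRCWE-043 0 members passed in limma (1.17% of all features were called, 0.924% higher and 0.243% lower), and 7 were higher at an unadjusted p under 0.05 (9.16% of all features higher). With NRCWE-045 0 passed (0% of all features), and 4 were higher at an unadjusted p under 0.05 (2.54%). For NRCWE-044 the count was 7 without replicate 6 and 1 without replicate 11, 18 or 34. For NRCWE-043 it was 1 without replicate 20 and 2 without replicate 26 or 33.

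Between materials at 54 µg, 0 members passed in limma. For NRCWE-044 against NRCWE-043, where 7.64% of all features were called (5.47% higher and 2.17% lower), an unadjusted p under 0.05 was reached by 1 member that was higher and 1 that was lower (9.99% of all features higher and 8.28% lower). For NRCWE-045 against NRCWE-043 (5.39%, with 3.88% higher and 1.51% lower) 1 was higher and 2 lower by that measure (9.16% and 6.43% of all features). For NRCWE-045 against NRCWE-044 (0%) 0 were higher and 5 lower (3.34% and 2.7% of all features), all 5 of them fatty acid genes. Idi1 differed by -0.11 (95% interval -0.37 to 0.16), -0.15 (-0.42 to 0.11) and -0.05 (-0.31 to 0.22) in these comparisons, so differences of the size of its change from control lay outside each interval. Without NRCWE-043 replicate 9, 1 member was called for NRCWE-044 against NRCWE-043. For NRCWE-045 against NRCWE-044 at 54 µg, all 11 adipocyte markers were also lower, with a median change of -1.23 and 0 called. Replicates 4 and 34 of NRCWE-044 had adipocyte marker means of 4.73 and 3.74. Their part in the 5 lower fatty acid genes was not tested.

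At 18 µg some members differed between materials, taken as the later-numbered material minus the earlier. Against NRCWE-043, 12.1% of the members were called for NRCWE-044 and 12.1% for NRCWE-045. These shares lay near the 10.9 and 8.55% of all features. For NRCWE-045 against NRCWE-044 it was 6.06% of the members against 0.446% of all features. For NRCWE-044 against NRCWE-043, where 10.9% of all features were called (5.41% higher and 5.46% lower), 3 members were higher and 1 lower. Pmvk was higher by 1.18 (adjusted p = 0.0012), Fdps by 0.43 (adjusted p = 0.047) and Acaca, which makes malonyl-CoA, by 0.47 (adjusted p = 0.023), and Stard4 was lower (change -0.66, adjusted p = 0.0071). For NRCWE-045 against NRCWE-043 (8.55%, with 6.02% higher and 2.53% lower) Pmvk was higher by 0.90, and Hsd17b7, Stard4 and Scd1 were lower, with changes of -0.58, -0.63 and -1.10. For NRCWE-045 against NRCWE-044 (0.446%, with 0.36% higher and 0.0862% lower) Acaca and Scd1 were lower, with changes of -0.59 (adjusted p = 0.038) and -1.29 (adjusted p = 0.023). At 54 µg the Scd1 differences were -0.86 and -1.06, in the same direction but not past the threshold (adjusted p = 0.06 and 0.18). The Fdps call was lost in 5 of 10 fits without 1 array, and without NRCWE-044 replicate 6, an array of raised adipocyte markers, its difference was 0.25 (adjusted p = 0.19). The count for NRCWE-044 against NRCWE-043 was 2 without replicate 11 or 20, and that for NRCWE-045 against NRCWE-043 was 1 without replicate 10. For NRCWE-045 against NRCWE-044 it was 0 without replicate 12 or 27 and 1 without replicate 1, 6, 11, 13, 17, 21 or 25.

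**Figure D5:**
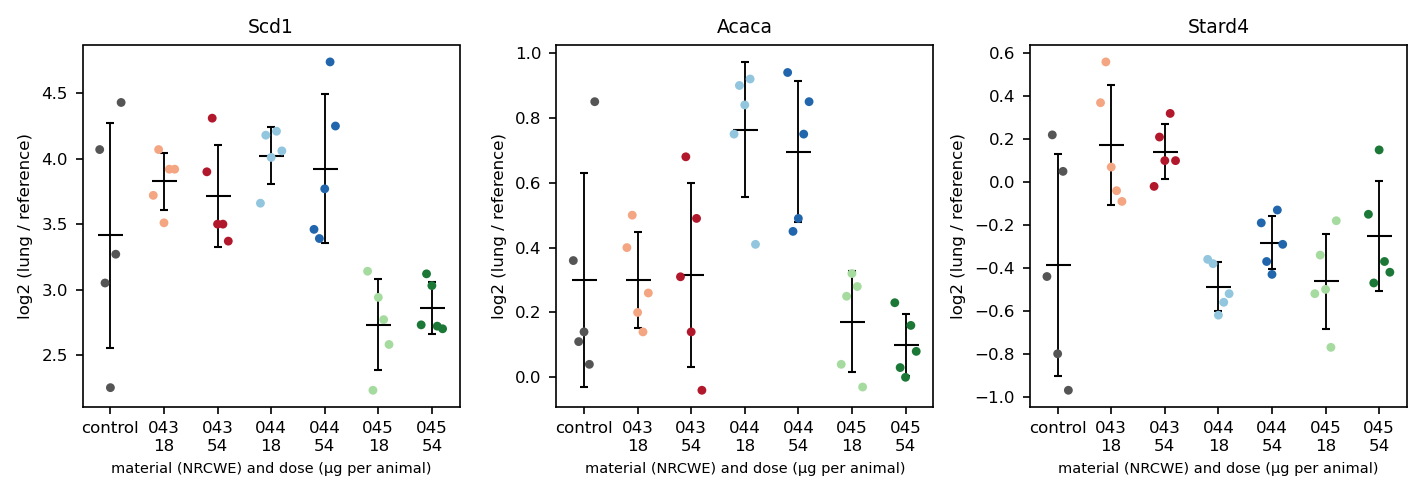
Log2 ratio of lung to reference RNA for Scd1, Acaca and Stard4, 1 point per array, with group mean and SD, in control and the 3 materials at 18 and 54 µg. Scd1 lies between 2.23 and 3.14 on the NRCWE-045 arrays and Stard4 between -0.09 and 0.56 on the NRCWE-043 arrays.

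Within groups the members varied together weakly at the median, while single pairs ranged widely. Over the 35 arrays, with group means removed, the median Pearson r was 0.20 over 136 pairs of sterol enzymes and 0.18 over 55 pairs of fatty acid genes. It was 0.11 between both sets and 0.01 over all pairs of features. Single pairs of sterol enzymes ran from -0.50 (Pmvk with Hsd17b7) to 0.90 (Sqle with Msmo1). Cyp51 has a missing value and stays out of these pairs. The arrays share slides and the reference RNA, and with slide means removed the medians were 0.31, 0.18 and 0.12. With arrays centred on their medians in place of loess they were 0.80, 0.77 and 0.78, and 0.45 over all pairs of features.

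Neighbouring pathways were counted beside the members. At 54 µg, 10.3, 5.98 and 0.325% of all features were called with NRCWE-043, NRCWE-044 and NRCWE-045. The 4 genes that process or hold SREBP had 0 calls in the 6 comparisons with control, with median changes of -0.08, -0.11 and -0.08 at 54 µg. Of 7 genes of the LXR response and sterol efflux, 2 fell at 54 µg of NRCWE-043 and NRCWE-044: the transporter Abca1 fell by 0.60 and 0.90, and Abcg1, another sterol exporter, by 0.57 and 0.75 (adjusted p = 0.032, 0.0026, 0.022 and 0.0043). None of the 7 passed with NRCWE-045. Of 8 genes of isoprenoid branches, 1 (12.5%, near the 10.3% of all features), Pdss1, rose by 0.35 with NRCWE-043 at 54 µg. Of 5 transcriptional regulators of lipogenesis, Mlxipl and Pparg fell by 0.60 and 0.41 there. The 8 genes of sterol trafficking and the 7 of glyceride synthesis had 0 calls in all 6 comparisons.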

How the data were processed

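Lung RNA (Cy5) and a common reference RNA (Cy3) were hybridised together on 35 arrays in 7 groups of 5. The deposited scanner files hold median spot and background intensities from Agilent Feature Extraction 11.0.1.1, per the file headers, and quality flags. The authors' deposited series table holds log2 ratios, which tracked the loess values here (r of 0.994 or more on each array, in the same direction, with array medians from -0.04 to 0.018); their normalization is not given in these sources. These served as an alternative.

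Intensities were corrected with normexp (offset 50) and normalized by loess within arrays in limma 3.58.1 (R 4.3.3); control spots got no weight and outlier spots were left out. A probe was kept, as 34326 of 55681 were, where the scanner software placed its Cy5 signal well above background on 3 or more of the 5 arrays of any group. The brightest probe stood for a gene, giving 25534 features. Models over all 35 arrays (lmFit, eBayes) gave 15 comparisons, with p-values adjusted by Benjamini-Hochberg within each. Genes with values for every array are 14 chosen by name and any other member called in at least 2 of the 6 comparisons with control, and Pmvk, added after its values were seen; from other lists at most 3 called genes are named, those of largest absolute change at 54 µg. Members and lists were chosen with earlier results of these data known. Correlations and promoter matches are descriptions. The fitting step was also run on simulated data with independent noise for each gene and array. These held no slide effects or outlying arrays, so that run does not bear on either. Alternatives changed the background correction, normalization, values, filter, probe summary, slide handling, arrays in the fit and single arrays; the 3 that leave out sets of arrays were added after seeing the data. The list of 1 further pathway is not reported here.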

Additional observations from a re-analysis of the deposited data

Results flagged for a closer look

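Of 133 sets of 5 or 4 arrays, 4 had an array set apart from the others by Dixon's test. The sets were 17 named genes and the means of the sterol and fatty acid lists, in 7 groups. Chance alone gives about 1 in 20, or 6.7 of 133, so the 4 are no more than chance would give. Idi1 read 0.49 on NRCWE-045 at 18 µg replicate 13, against -0.06 to 0.09 on the group's other arrays. Dhcr7 read -0.85 on replicate 27 of the same group, against -0.50 to -0.43. Scd2 read 0.45 on NRCWE-045 at 54 µg replicate 35, against -0.04 to 0.07. Tm7sf2 read 0.94 on NRCWE-043 at 18 µg replicate 10, against 0.22 to 0.36.

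10 differences between materials passed at 18 µg (limma, adjusted p under 0.05), given as log2 changes with the second material subtracted. For NRCWE-044 against NRCWE-043 they were Pmvk at 1.18, Fdps at 0.43, Stard4 at -0.66 and Acaca at 0.47. For NRCWE-045 against NRCWE-043 they were Pmvk at 0.90, Hsd17b7 at -0.58, Stard4 at -0.63 and Scd1 at -1.10. For NRCWE-045 against NRCWE-044 they were Acaca at -0.59 and Scd1 at -1.29. In these 3 comparisons in turn, 12.1, 12.1 and 6.06% of the members were called. Of all features, 10.9, 8.55 and 0.446% were called, so the first 2 shares of members lay near those of all features.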

How the results depend on the processing

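The median change of the sterol enzymes stayed above 0 in all 6 comparisons with control under every alternative, while counts of called members moved under several. With median centring in place of loess the counts were 3, 0 and 0 at 54 µg for NRCWE-043, for NRCWE-044 and for NRCWE-045, 0 at 18 µg of NRCWE-043, 0 for the NRCWE-044 dose step and 0 for each of the 3 material comparisons at 18 µg. The sterol medians were then 0.74 (NRCWE-043) and 0.50 (NRCWE-045) at 54 µg, the fatty acid medians 0.49 (NRCWE-043 at 54 µg) and 0.03 (NRCWE-044 at 18 µg), and the median r was 0.80 among sterol enzymes, 0.77 among fatty acid genes and 0.78 between them, against 0.45 over all features. Median centring moved the median change of all features to 0.12 for NRCWE-043 at 54 µg, from 0.01, and the share of calls that were higher there from 52.1 to 66.9%; for NRCWE-044 at 54 µg that share went from 65.8 to 95.3%, or 53.6% with the deposited values and 54.2% with Cy5 alone.

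The deposited values gave 1 member for NRCWE-045 at 54 µg, 3 for NRCWE-043 at 18 µg and 1 for NRCWE-045 against NRCWE-044 at 18 µg. Cy5 alone gave 6 and 1 for NRCWE-044 and NRCWE-045 at 54 µg, 3 for NRCWE-043 at 18 µg, 2 and 1 for the dose steps of NRCWE-043 and NRCWE-044, 1 for NRCWE-045 against NRCWE-044 at 18 µg and 1 for NRCWE-045 against NRCWE-043 at 54 µg, with a fatty acid median of 0.20 for NRCWE-044 at 18 µg. Without the filter on dim probes NRCWE-043 at 18 µg had 3, and with probes above background on all arrays the fatty acid median of NRCWE-044 at 18 µg was 0.24. The mean over probes gave 1 for NRCWE-045 against NRCWE-044 at 18 µg. Slide as a fixed block gave 4 for NRCWE-045 at 54 µg, 3 for the NRCWE-043 dose step, 1 for NRCWE-045 against NRCWE-043 at 54 µg and a fatty acid median of 0.22 for NRCWE-044 at 18 µg; as a random block the counts were 4, 3 and 1, and 1 for NRCWE-045 against NRCWE-044 at 54 µg. Fits on only the groups compared gave 1 for NRCWE-045 at 54 µg, 0 for NRCWE-043 at 18 µg, 1 for the NRCWE-044 dose step, 2 and 1 for NRCWE-044 against NRCWE-043 and NRCWE-045 against NRCWE-044 at 18 µg, and 1 each for NRCWE-044 and NRCWE-045 against NRCWE-043 at 54 µg. The cause of these moves was not tested.

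3 alternatives were chosen after seeing the data. Without controls 7 and 29 the counts were 6 and 1 for NRCWE-044 and NRCWE-045 at 54 µg and 1 for NRCWE-044 against NRCWE-043 at 54 µg, with fatty acid medians of 0.08 for NRCWE-043 at 54 µg and -0.20 for NRCWE-045 at 18 µg. Without replicates 5, 6, 10 and 23 they were 15, 19 and 8 at 54 µg, 10 for the NRCWE-044 dose step, 1 each for NRCWE-045 against NRCWE-043 and NRCWE-044 at 18 µg and 1 for NRCWE-045 against NRCWE-044 at 54 µg, with a fatty acid median of 0.25 for NRCWE-044 at 18 µg. Without the 6 arrays of raised adipocyte markers they were 4, 3 and 4 at 54 µg, 1 for the NRCWE-044 dose step and 1 for NRCWE-045 against NRCWE-044 at 18 µg, with a fatty acid median of 0.25 for NRCWE-044 at 18 µg.

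Leaving out single arrays gave 7 to 11, 5 to 12 and 0 to 4 called members at 54 µg for NRCWE-043, for NRCWE-044 and for NRCWE-045, 1 to 5, 0 to 1 and 0 to 0 at 18 µg, 0 to 2, 1 to 7 and 0 to 0 for the dose steps, 2 to 6, 1 to 5 and 0 to 2 for NRCWE-044 against NRCWE-043, NRCWE-045 against NRCWE-043 and NRCWE-045 against NRCWE-044 at 18 µg, and 0 to 1, 0 to 0 and 0 to 0 at 54 µg. The fatty acid medians then ran from 0.12 (without control 15) to 0.30 for NRCWE-043, 0.25 (without control 15) to 0.53 for NRCWE-044 and -0.01 (without replicate 14) to 0.07 for NRCWE-045 at 54 µg. At 18 µg they ran from 0.08 to 0.14 for NRCWE-043, 0.09 (without control 7) to 0.24 (without replicate 23) for NRCWE-044, and -0.16 (without control 7) to -0.02 for NRCWE-045. Of the changes called here, 384 checks over the other alternatives kept the call and 120 lost it, and 278 kept and 112 lost it without single arrays; none reversed. No paired analysis was possible because replicate numbers run from 1 to 35 and no number is shared by 2 groups. Slide, which several groups share, was a block only in alternative fits, and the main fit had no block. The number of arrays and dim probes limit what could be called.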
